A study of Rattus norvegicus with 8 samples.

Results

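Immediate-early genes are switched on within minutes of strong neuronal firing, before any new protein is needed. The 10 genes described here are such genes or, as with Nptx1 and Nptxr, relatives of one. All act at the synapse or elsewhere in the cell rather than in the core Fos, Jun and Egr families. They are Arc, Homer1, Npas4, Nptx1, Nptx2, Nptxr, Ier2, Ier3, Btg2 and Maff. Every non-control spot of the rat array whose gene name equals one of these symbols was taken, which gave 30 spots of 12 probes among 43379 spots and 35199 gene names. Of the 10 members, 8 had a spot bright enough in all 8 rats to be tested, among 21332 gene names tested in all.

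RNA came from the dentate gyrus, a subfield of the hippocampus, of 8 adult female Sprague-Dawley rats that had all been ovariectomized a week before hormone treatment and had all undergone kainic acid status epilepticus (SE). The 4 COS rats had received oil and the 4 CES rats estradiol. The labels give 4 doses of 2 µg at intervals of 24 h, 2 before and 2 after SE, kainic acid at 16 mg/kg, and seizures stopped after 5 h with pentobarbital. The methods instead place all hormone injections before kainic acid, give a lower kainic acid dose, require at least 2 h of continuous seizures and name diazepam. The methods also time the tissue in 2 ways, 24 h after SE and 2 h after the onset of continuous seizures, so the interval between seizures and these RNAs is not settled. Groups without seizures are not analysed here, so a value below describes one seizured group against the other and not the response to seizures. Each of the 4 arrays carried 2 rats of the same group, one labelled with Cy3 and one with Cy5. A difference between arrays therefore cannot be fully told apart from one between groups. The array entered the fit as a random block, which models what the 2 rats of an array share but does not remove this limit. The correlation within arrays estimated for that block was -0.0064.

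As background, Arc is made at active synapses and helps to remove AMPA-type glutamate receptors from the membrane. The Homer1 gene makes long scaffold proteins that tie metabotropic glutamate receptors to Shank and to the IP3 receptor, and a short activity-induced form, Homer1a, that lacks the coiled coil and uncouples them. Neuronal pentraxins (Nptx1, the activity-induced Nptx2, also called Narp, and the membrane-bound receptor Nptxr) cluster AMPA receptors from the extracellular side. Npas4 is a neuron-restricted, activity-dependent transcription factor that shapes inhibitory synapses. Maff is a small Maf protein that dimerizes with CNC factors, Btg2 is an antiproliferative partner of the CCR4-NOT deadenylase, and Ier2 and Ier3 are short-lived products of the early response, the latter tied to cell survival.

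Between COS and CES, 5 of the 8 tested members fell and 1 rose by limma's test with Benjamini-Hochberg adjustment over all 21332 gene names. Ier2, Ier3, Btg2, Nptx2 and Arc were lower in CES, Nptx1 was higher, and Homer1 taken over all its spots and Nptxr did not pass. Over all gene names, 28.3% were called lower and 5.8% higher, so the share of lower calls among the members, 5 of 8, stands beside a background of lower calls that is itself large. The median difference of the 8 members, CES minus COS on the log2 scale, was -1.61, against -0.25 over all gene names. In 4 members (Nptx2, Ier2, Ier3 and Btg2) every CES rat lay below every COS rat, a pattern seen in 19.8% of all gene names. Levels are the log2 of the background-subtracted signal over the median of the valid spots of the same channel, so 0 is the median spot. They compare rats for a probe and not different probes with each other. Bulk RNA does not tell apart fewer cells of a type and less RNA per cell. The rats are labelled as biological replicates, and an adjusted p sets the difference between the groups against the spread between rats.

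The level of all genes depends on how channels are scaled. Dividing each channel by the median of its spots valid in the whole set of 8 rats moved the median of all gene names from -0.25 to 0.15, and the deposited log2 table put it at 0.12. The calls over all gene names then turned from 1238 higher and 6038 lower to 3348 higher and 1718 lower under the first of these and to 3275 and 1927 under the second. In the first of these Ier2, Ier3, Btg2 and Nptx1 kept their calls, and those of Arc (log2 difference -0.88, limma adjusted p = 0.0717) and Nptx2 (-1.54, limma adjusted p = 0.0535) were lost. Relative to the median of all gene names, Arc differed by -1.02, Nptx2 by -1.69, Ier2 by -1.87, Ier3 by -2.08 and Btg2 by -2.12 on the log2 scale, while Nptx1 differed by 1.11. Homer1 and Nptxr differed by 0.07 and 0.31 on that relative scale.

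**Figure D1:**
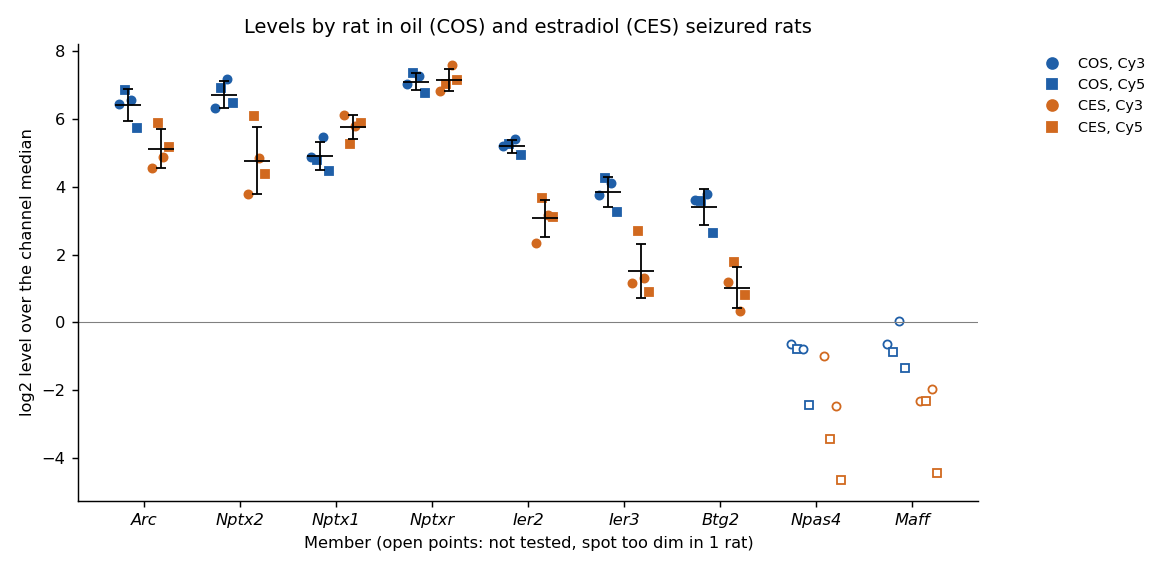
The plot shows the log2 level over the channel median (vertical axis) in each rat for 9 members (horizontal axis), COS in blue and CES in orange, with circles for Cy3 and squares for Cy5 and with black bars for the mean ± SD of 4 rats. The orange points lie below the blue ones without overlap for Nptx2, Ier2, Ier3 and Btg2, and open points mark Npas4 and Maff, which missed the validity limit in 1 rat and did not enter the test.

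Among the postsynaptic members, Arc fell in CES. Its probe was printed on 10 spots and lies on the minus strand at chr7:112772025-112772084 of rn4, the build named in the scanner files. COS rats 1 to 4 had log2 levels of 6.43, 6.85, 6.55 and 5.74, and CES rats 1 to 4 had 4.54, 5.89, 4.86 and 5.17. The groups overlapped in a single pair, since CES rat 2 stood above COS rat 4. The spots of Arc within a rat had an SD of 0.14 to 0.31, less than the SD between rats of 0.47 in COS and 0.57 in CES (n = 4 each). The fitted log2 difference was -1.28 ± 0.31 (SE), 2.42-fold lower in CES, with a limma adjusted p of 0.0126. The call was lost without COS rat 3 (adjusted p = 0.0970) and without CES rat 1 (adjusted p = 0.0650), with log2 differences of -1.09 in both fits. Of 80 spot values of Arc, 5 carried the scanner's non-uniformity mark, all in CES rats, and dropping them gave -1.25 with a limma adjusted p of 0.0143.

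Homer1 was read by probes of 2 records, and these behaved differently. The long-form probe, on 10 spots, was designed on NM_031707, which the array design groups with the records of the long proteins. The short-form probe, on 1 spot, was designed on U92079, the record of the original short transcript. Neither probe has a genome position in the files. The first 30 bases of each 60-base probe are given here because the finding rests on these being separate sequences, and the longest stretch that the full probes share is 6 bases:
Homer1 long-form probe: gcctgtgatattgaagagggttcttttcat
Homer1 short-form probe: aacagaagctcattgacaaactaaagtgac

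The short-form probe was lower in CES in every rat. COS rats 1 to 4 had log2 levels of 2.88, 3.77, 4.23 and 3.24 and CES rats 1 to 4 had 1.35, 2.48, 1.87 and 1.50, so the groups did not overlap. In the fit over all 25698 probes the log2 difference was -1.73 ± 0.33 (SE), 3.31-fold lower, with a limma adjusted p of 0.00565, where 29% of all probes were called lower. The long-form probe, in contrast, had 3.59, 2.86, 3.48 and 3.06 in COS rats and 3.43, 2.93, 3.19 and 3.18 in CES rats. These overlapped throughout, and the log2 difference was -0.06 with a 95% confidence interval from -0.43 to 0.31 (limma adjusted p = 0.800), and its sign turned under 5 other corrections or scalings, at most to 0.34. Averaged over its 11 spots, which the long-form probe dominates, Homer1 differed by -0.18 with an interval from -0.53 to 0.17 (limma adjusted p = 0.401).

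The log2 ratio of the short-form to the long-form probe within a channel does not depend on scaling by a constant. It was -0.71, 0.90, 0.75 and 0.18 in COS rats 1 to 4 and -2.08, -0.45, -1.32 and -1.68 in CES rats 1 to 4. COS rat 1 was the lowest of its group and lay below CES rat 2, the highest of the other. The mean ratio was 1.67 lower in CES on the log2 scale, with a two-sided exact permutation p of 0.0571 (adjusted over the 2 probe ratios examined, p = 0.0571), where 4 against 4 rats can reach 0.0286 at the lowest. Which Homer1 transcripts each probe binds was not tested. Leaving out each rat in turn, the short-form probe kept its call in all 8 fits, with log2 differences from -1.97 to -1.40, and under normexp background correction, which also lowered the calls over all gene names to 123 higher and 454 lower, it gave -1.44 with an adjusted p of 0.0551.

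**Figure D2:**
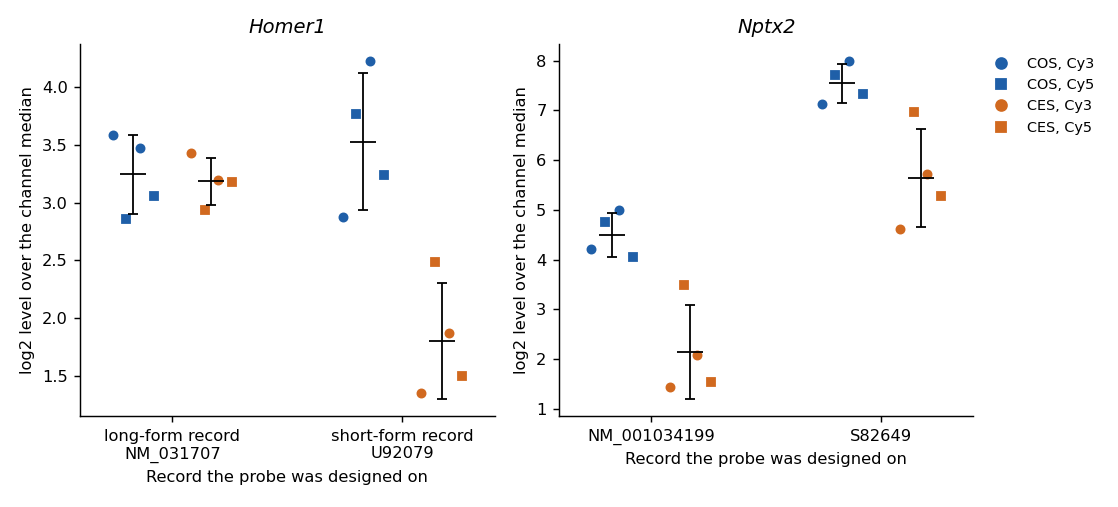
The left panel plots the log2 level over the channel median (vertical axis) for the long-form and the short-form probe of Homer1 and the right panel for the NM_001034199 and S82649 probes of Nptx2, with 1 point per rat and bars for the mean ± SD of 4 rats. COS (blue) and CES (orange) overlap for the long-form Homer1 probe and separate for the short-form one, while both Nptx2 probes are lower in CES.

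The pentraxins moved apart. Nptx2 fell, with log2 levels of 6.31, 6.89, 7.17 and 6.47 in COS rats 1 to 4 and 3.77, 6.09, 4.84 and 4.38 in CES rats 1 to 4. All CES rats were below all COS rats, and CES rat 2 came close to the lowest COS rat. The fitted log2 difference was -1.94 ± 0.41 (SE), 3.84-fold lower, with a limma adjusted p of 0.00819. Without COS rat 3 the log2 difference was -1.64 and the call was lost (limma adjusted p = 0.0786), and without CES rat 2 it was -2.38.

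Nptx2 was measured by 2 probes on the minus strand of chromosome 12 in rn4, at chr12:10359854-10359913 (record NM_001034199) and chr12:10358912-10358971 (record S82649). Both records belong to the same gene, and the first 30 bases of each are given because their agreement bears on the direction:
Nptx2 NM_001034199 probe: catcatcccatgggtggacaacaatgtcga
Nptx2 S82649 probe: cccgtccagtattttccccggaactggaga

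The NM_001034199 probe was 5.16-fold lower in CES (log2 difference -2.37 ± 0.42 SE, limma adjusted p = 0.00480) and the S82649 probe 3.72-fold lower (log2 difference -1.90 ± 0.41 SE, limma adjusted p = 0.00849). The call of the latter was lost without COS rat 3 (adjusted p = 0.0780) and under 4 other corrections or scalings, namely normexp (0.0642), loess and Aquantile (0.0697), the deposited table (0.0524) and the scaling over shared spots (0.0582). The log2 ratio of the S82649 to the NM_001034199 probe was 0.47 higher in CES, with a two-sided exact permutation p of 0.0571.

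Nptx1 rose. It had log2 levels of 4.87, 4.80, 5.46 and 4.47 in COS rats 1 to 4 and 6.10, 5.25, 5.78 and 5.89 in CES rats 1 to 4. The groups overlapped only where COS rat 3 exceeded CES rat 2. The log2 difference was 0.86 ± 0.21 (SE), 1.81-fold higher, with a limma adjusted p of 0.0143. The single spot of this gene, at chr10:108919371-108919430 on the minus strand of rn4, carried the non-uniformity mark in CES rats 3 and 4. With those values dropped, so that the fit held 6 rats, the log2 difference was 0.77 with a limma adjusted p of 0.0474. The call was lost without COS rat 1, 3 or 4 or CES rat 1, with adjusted p from 0.0530 to 0.0678.

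Nptxr, the pentraxin receptor, had log2 levels of 7.01, 7.33, 7.25 and 6.77 in COS rats 1 to 4 and 6.83, 7.02, 7.59 and 7.15 in CES rats 1 to 4. The ranges of the groups overlapped almost throughout. The log2 difference was 0.05 with a 95% confidence interval from -0.42 to 0.52 (limma adjusted p = 0.866), and its sign turned without COS rat 1 or 4 or CES rat 3 or 4. With other scalings the log2 difference was 0.35 under quantile normalization, 0.45 over the spots shared by all rats and 0.49 in the deposited table, where the limma adjusted p was 0.0670.

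Ier2, Ier3 and Btg2 fell without overlap between the groups. Ier2 had log2 levels of 5.19, 5.25, 5.40 and 4.93 in COS rats 1 to 4 and 2.33, 3.65, 3.17 and 3.11 in CES rats 1 to 4. The lowest COS rat stood above the highest CES rat by more than the whole range of COS. It fell 4.36-fold (log2 difference -2.13 ± 0.26 SE, limma adjusted p = 0.00314).

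Ier3 had log2 levels of 3.76, 4.25, 4.10 and 3.24 in COS rats 1 to 4 and 1.15, 2.68, 1.31 and 0.89 in CES rats 1 to 4. The groups did not overlap, and CES rat 2 was the nearest to COS. Ier3 fell 5.04-fold (log2 difference -2.33 ± 0.38 SE, limma adjusted p = 0.00419).

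Btg2 had log2 levels of 3.61, 3.57, 3.79 and 2.64 in COS rats 1 to 4 and 1.19, 1.78, 0.33 and 0.82 in CES rats 1 to 4. Again no CES rat reached a COS rat, and COS rat 4 was the lowest of its group, as it was for Arc, Ier2 and Ier3. Btg2 fell 5.19-fold (log2 difference -2.38 ± 0.34 SE, limma adjusted p = 0.00375). For these 3 genes the limma call held in all 8 fits that left out a rat, and the largest adjusted p, 0.0485, came for Ier3 without COS rat 3.

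CES rat 2 gave the highest CES level of Arc, Nptx2, Ier2, Ier3, Btg2 and the short-form Homer1 probe and the lowest of Nptx1. Without that rat the log2 differences were -1.52 for Arc, -2.31 for Ier2, -2.76 for Ier3, -2.68 for Btg2 and 0.97 for Nptx1, each larger in size than with it.

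**Figure D3:**
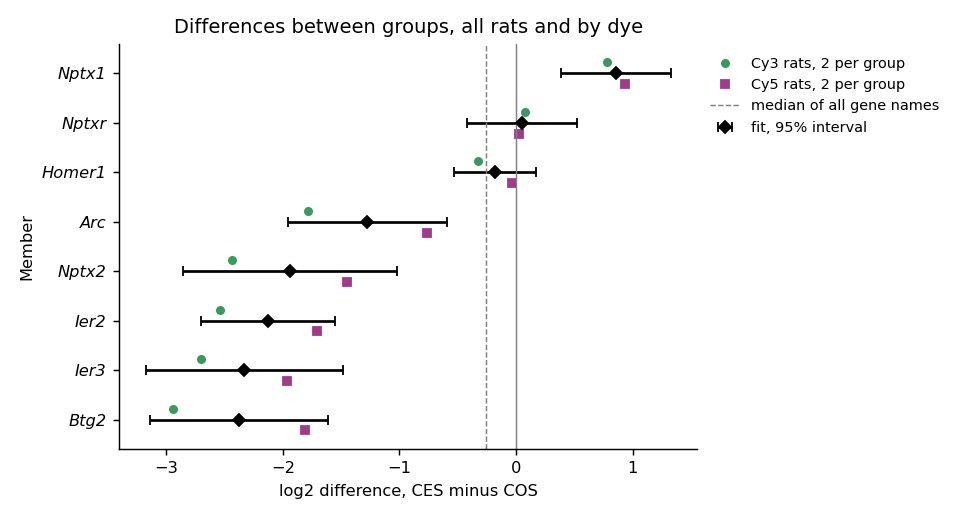
The plot gives the log2 difference, CES minus COS (horizontal axis), for the 8 tested members (vertical axis) as the fitted value with its 95% confidence interval (black diamonds), the difference among the Cy3 rats alone (circles) and among the Cy5 rats alone (squares), 2 rats per group in each dye, with the median of all gene names as a dashed line. The 5 falling members lie left of the dashed line in both dyes and further left in Cy3, with Arc at -1.79 in Cy3 and -0.77 in Cy5.

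Direction was the same in both dyes for all 8 members, but the falls were larger among the Cy3 rats. In Cy3 and Cy5, respectively, the log2 differences were -2.43 and -1.45 for Nptx2, -2.54 and -1.71 for Ier2, -2.70 and -1.97 for Ier3, and -2.94 and -1.81 for Btg2. CES rat 2 was labelled with Cy5. Whether the dyes differ was not tested.

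Npas4 and Maff each had 1 spot, which reached the validity limit (foreground at least 2 times background) in 7 of 8 rats and missed it in CES rat 4, so neither entered the test. The Npas4 spot, at chr1:207598909-207598968 on the minus strand of rn4, carried the scanner's well-above-background mark in 3 of 4 COS rats and in 0 of 4 CES rats. Its measured log2 levels were -0.65, -0.79, -0.77 and -2.43 in COS rats 1 to 4 and -0.98, -3.44, -2.46 and -4.64 in CES rats 1 to 4. The groups overlapped through CES rat 1 and COS rat 4. Each CES rat was then set to the higher of its own level and the lowest valid signal marked well above background in its channel. The mean level was 2.09-fold higher in COS (-1.16) than in CES (-2.23) on that setting. This is neither a measured fold nor a strict bound, since COS rat 3 also lacked the mark and entered at its own level. A fit without the validity filter, over 35199 gene names, gave a limma adjusted p of 0.0825 for the difference.

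The Maff spot spans chr7:117338058-117338482 on the plus strand of rn4, longer than the 60-base probe. The mark for a signal well above background was set in 4 of 4 COS rats and, of the 4 CES rats, in 1 alone, CES rat 2. Its measured log2 levels were -0.63, -0.87, 0.03 and -1.36 in COS rats 1 to 4 and -2.30, -2.31, -1.95 and -4.43 in CES rats 1 to 4. Every COS rat exceeded every CES rat. Since 3 of the CES values were not above background by that mark, no fold is given. The fit without the validity filter gave a limma adjusted p of 0.0411, computed with those CES values, so it is not counted as a call.

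RefSeq promoter sequences of the GRCr8 build (250 bases before to 50 after the annotated start) were found for 6 of the 10 members, Homer1, Npas4, Maff, Nptx2, Ier2 and Btg2. The full cAMP response element (CRE), which CREB binds in many activity-induced genes, is the palindrome TGACGTCA, and it was present in 3 of the 6, Maff, Ier2 and Btg2, against 1.83% of 33469 promoters of the same length. Its half-site TGACG, searched on both strands and contained in the full element, was in 4 of the 6 (Nptx2 in addition), against 21.2% of all promoters. No match was found in the 6 for the CArG box of serum response factor (1.64% of all promoters), the AP-1 site TGACTCA or TGAGTCA (4.63%), or the estrogen response element GGTCANNNTGACC (0.0269%). The letters TATAAA, searched on both strands, were matched in Homer1 alone (14.2% of all promoters). That match lay on the strand opposite to the gene, from 223 to 218 bases before the start. These are matches of letters in a window and not evidence of binding, and the members were not chosen at random.

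Nptx2 fell in CES without a full CRE in this window, and whether the element bears on any difference between the groups was not tested. The 250 bases before the start of the members with a full CRE are given to show where it lies, with the CRE in capitals and each sequence in the direction of its gene:
Ier2, chr19:40399123-40399372, plus strand: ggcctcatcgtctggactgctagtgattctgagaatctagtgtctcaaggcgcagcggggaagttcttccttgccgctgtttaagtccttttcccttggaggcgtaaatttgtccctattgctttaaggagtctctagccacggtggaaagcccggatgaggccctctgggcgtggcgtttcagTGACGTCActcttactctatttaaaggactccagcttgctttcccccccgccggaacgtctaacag
Btg2, chr13:48087691-48087940, minus strand: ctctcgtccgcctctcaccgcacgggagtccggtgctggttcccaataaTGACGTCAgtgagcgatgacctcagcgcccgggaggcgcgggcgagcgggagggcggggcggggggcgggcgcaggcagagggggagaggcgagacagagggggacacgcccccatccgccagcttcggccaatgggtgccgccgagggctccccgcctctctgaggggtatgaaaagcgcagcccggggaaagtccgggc
Maff, chr7:112792537-112792786, plus strand: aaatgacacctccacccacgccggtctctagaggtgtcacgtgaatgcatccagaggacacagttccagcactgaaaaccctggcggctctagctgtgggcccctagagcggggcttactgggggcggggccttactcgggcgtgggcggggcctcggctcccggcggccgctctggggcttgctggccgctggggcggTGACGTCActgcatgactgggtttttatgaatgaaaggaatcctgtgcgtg

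The element lay from 66 to 59 bases before the start in Ier2, from 51 to 44 in Maff and from 201 to 194 in Btg2.

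The partners of these members were examined as lists chosen by function. Of 27 other effector immediate-early genes tested, 20 fell, none rose, and the median log2 difference was -1.38, against -0.25 over all gene names. Gadd45g differed by -4.42, Inhba, the activin A subunit, by -4.32 and Gadd45b by -3.03. Cyr61, a secreted matrix protein, had -4.50, but it was well above background in 2 of 4 CES rats, so the size of its fall is not settled. The limma adjusted p of these 4 genes ran from 0.00294 to 0.00434. Of 19 immediate-early transcription factor genes, 15 fell and none rose, beside the same shares over all gene names, with a median of -1.91. Fos differed by -4.25 and Myc by -2.73. Atf3 (-5.59) and Fosl1 (-5.29) were well above background in 3 of 4 CES rats each. Some other called genes of both lists also lacked that mark in some CES rats. Without COS rat 3 the lower calls numbered 8 of 27 and 7 of 19 in these lists, with medians of -1.21 and -1.79, while over all gene names they fell from 6038 to 914.

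The counts that follow stand beside 28.3% lower and 5.8% higher calls over all gene names, and shares near these say nothing particular about a list. The immediate neighbours of Arc and Homer1 moved in both directions. Among 15 tested Arc partners 3 rose and 2 fell. Camk2a, a kinase subunit, differed by 0.92, and Wasf1, a regulator of actin, by 0.78, whereas the dynamin Dnm2 differed by -0.63. Among 13 Homer relatives and partners 4 rose and 1 fell. Those that rose included the metabotropic glutamate receptor Grm5 (0.96), the scaffold Shank3 (0.96) and the IP3 receptor Itpr1 (0.95), and the 1 that fell was Homer3 (-0.69). Of 12 pentraxin partners 4 rose and 2 fell. The AMPA receptor subunit genes Gria2 (1.88) and Gria1 (1.17) were higher in CES, and C1ql2, a mossy fibre partner of glutamate receptors, and Adam17 were lower by log2 differences of -1.23 and -1.05.

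Of 11 tested partners and targets of Npas4, 1 rose and 2 fell, close to the shares over all gene names. Bdnf, the neurotrophin that Npas4 induces, was lower with a log2 difference of -1.48 ± 0.25 (SE, limma adjusted p = 0.00446), Csrnp1 with -2.18, and Prss22 was higher with 0.99. Among 7 small Maf and CNC partners of Maff, 4 fell and none rose, among them Mafk (-1.48), Nfe2l2 (-1.46), the CNC factor of the oxidative stress response, and Mafg (-0.83). Among 7 tested relatives and partners of the IER genes 4 fell and none rose. Those that fell were Mcl1 (-2.06), a survival protein of the BCL2 family, Ier5l (-1.89), Ier5 (-1.39) and Hsf1 (-0.66). Among 10 BTG, TOB and CCR4-NOT genes 4 fell and none rose, also near the background of lower calls, with a median of -0.37 and with Cnot6 (well above background in 2 of 4 CES rats) at -0.92, Btg3 at -0.72, Btg1 at -0.69 and Prmt1 at -0.66. Of 19 regulators of the SRF, MEF2 and CREB pathways 9 fell and none rose. Crem, the inducible CREB-family gene, differed by -2.29, Rps6ka3, a CREB kinase, by -1.54, Elk3 by -1.26 and Atf1 by -1.13.

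These list counts depended on the scaling and on 1 rat. With channels scaled over the spots shared by all rats, higher and lower calls numbered 6 and 0 among the Arc partners, 8 and 0 among the Homer partners, 5 and 1 among the pentraxin partners and 2 and 2 among the Npas4 partners. They numbered 1 and 3 among the small Maf partners and 0 and 3 among the IER relatives and partners. The BTG, TOB and CCR4-NOT genes had 1 and 1, and the SRF, MEF2 and CREB regulators had 1 and 5. The effector and transcription factor lists of immediate-early genes had 1 and 13 and 0 and 12 calls. List medians moved up under this scaling, from 0.06 to 0.46 for the Npas4 partners and from -0.83 to -0.43 for the small Maf partners. The median of the IER relatives and partners went from -0.66 to -0.26. That of the SRF, MEF2 and CREB regulators went from -0.47 to -0.07, and that of the BTG, TOB and CCR4-NOT genes across 0 from -0.37 to 0.03. Without COS rat 3, higher and lower calls numbered 0 and 0 among the Arc partners, 2 and 0 among the Homer and among the pentraxin partners, 1 and 1 among the Npas4 partners, 0 and 3 among the SRF, MEF2 and CREB regulators, and 0 and 1 in each of the small Maf, IER and BTG lists.

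**Figure D4:**
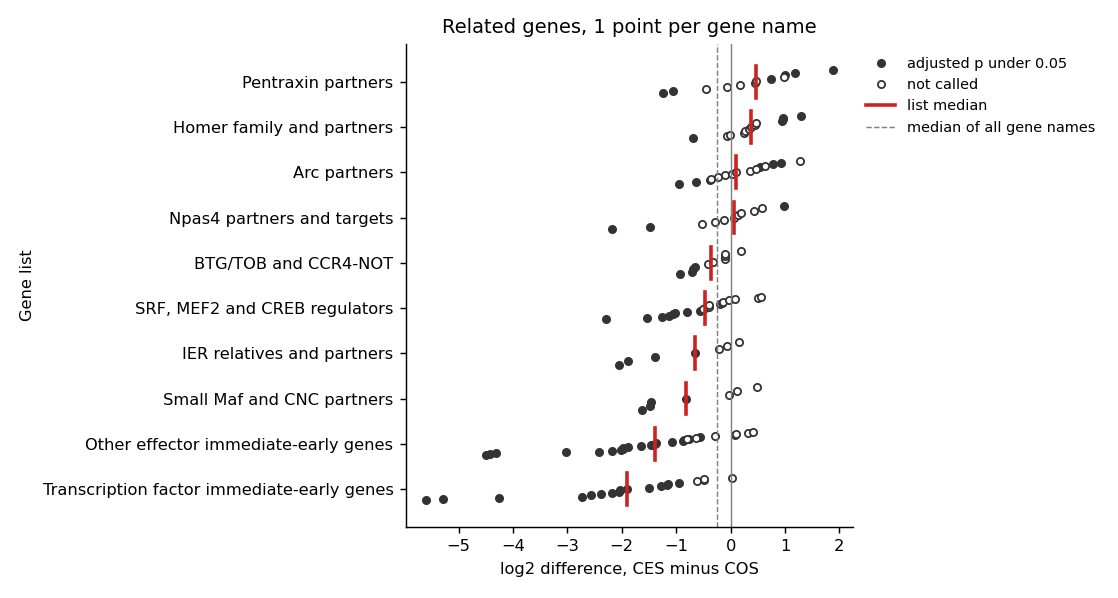
The plot shows the log2 difference, CES minus COS (horizontal axis), of each tested gene name in 10 lists (vertical axis), filled where the limma adjusted p was under 0.05, with the list median in red and the median of all gene names dashed. The 2 lists of immediate-early genes lie furthest left, with medians of -1.91 and -1.38, and the pentraxin and Homer partners lie furthest right.

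Over the 8 rats, the gene names whose log2 level followed Arc most closely were C1ql2 (Pearson r = 0.987), Sap30l (0.981) and the unnamed transcript TC640640 (0.980). For Nptx2 they were the transcript ENSRNOT00000020091 (0.995), Ran (0.992) and Lgmn (0.991). These are descriptions over 8 rats in 2 groups that differ in level, so they share the group difference, and Npas4 was not ranked because it was not tested.

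Markers of cell types in the tissue also moved between the groups, and their counts too stand beside 28.3% lower and 5.8% higher calls over all gene names. Of 8 markers of CA pyramidal neurons, which border the dentate gyrus, 6 were called higher in CES and none lower, including Pou3f1 (log2 difference 2.23), Nov (1.95), Grp (1.35) and Wfs1 (0.98). Fibcd1, also among the 6, was well above background in 0 of 4 COS and 2 of 4 CES rats. With that mark required in all rats, 5 of 7 were called higher. The summed log2 level of the 8 ranged from 5.12 to 5.65 in COS and from 5.64 to 7.00 in CES, with CES rat 2 the lowest of its group. Of 6 tested markers of dentate granule cells 3 were lower (Dsp, C1ql2 and Tdo2) and none higher, although Tdo2 was well above background in 0 of 8 rats and among the 4 markers with that mark in all rats 1 was lower, and their summed level ranged from 4.35 to 5.33 in COS and from 4.37 to 5.12 in CES. The granule cell marker Prox1 did not reach the validity limit in all rats. Of 6 interneuron markers 3 were lower (Npy, Sst and Vip), with summed levels from 8.42 to 9.11 in COS and from 6.65 to 8.24 in CES. That sum is carried by Npy and Sst, the brightest of the list in COS, while Gad1 (-0.57), Gad2 (-0.58) and Pvalb (0.51) were not called. Of 4 endothelial markers 3 were lower (Vwf, Flt1 and Tek). Microglial markers had 2 lower and 1 higher of 6, neuronal markers 1 lower and 2 higher of 6, and astrocyte markers 2 higher of 6. None of 6 oligodendrocyte, 3 blood or 7 choroid plexus markers was called, but the choroid plexus sum ranged from 5.04 to 9.52 within COS. With channels scaled over the spots shared by all rats, higher and lower calls were 6 and 0 for CA pyramidal, 0 and 0 for granule cell and endothelial, 1 and 2 for interneuron, 1 and 0 for microglial, 3 and 0 for neuronal and 2 and 0 for astrocyte markers. Without COS rat 3, 2 CA pyramidal markers were called higher and no marker of any other list was called. The part of these shifts in the differences of the members was not tested.

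**Figure D5:**
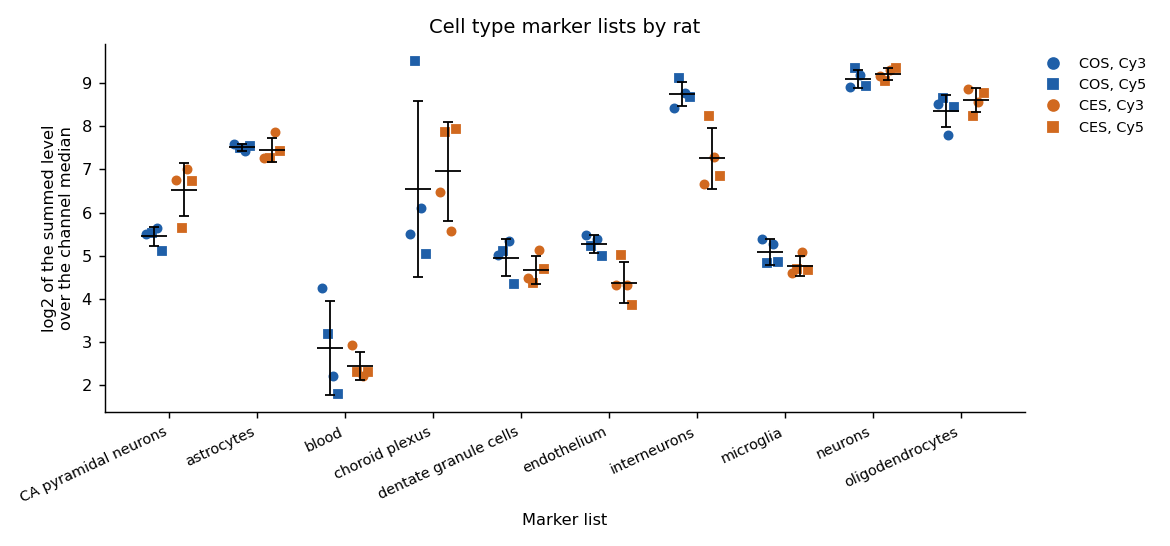
The plot shows the log2 of the summed level over the channel median (vertical axis) of 10 lists of cell type markers (horizontal axis) in each rat, COS in blue and CES in orange, with circles for Cy3, squares for Cy5 and bars for the mean ± SD of 4 rats. The CA pyramidal sum is higher in CES, and the groups overlap only where CES rat 2 (5.64) lies just below COS rat 3 (5.65). The interneuron sum is lower in CES in all rats.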

How the data were processed

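Total RNA of 8 dentate gyri was labelled with Cy3 or Cy5 and hybridised in pairs of the same group to 4 arrays of 1 Agilent rat 4 x 44k slide (the "multiple yellow" design). The authors scanned them with Agilent Feature Extraction 10.7.3.1, per the submitters' processing notes, and deposited the spot intensity values of each channel, with the local background and the software's marks for spots well above background, saturated or non-uniform. The deposited log2 table holds background-subtracted median signals, centred on each channel's median as set against the scanner intensity values. It was used as an alternative.

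Here the mean intensity minus the background median of valid spots (foreground at least 2 times background) was divided by the median of the same channel's valid spots, spots valid in all 8 rats were averaged per gene name (21332) or probe (25698), and log2 was taken. Depending on the rat, 30690 to 38553 of 43379 spots were valid and none was saturated. The number of arrays limits the precision. limma 3.58.1 (R 4.3.3) was fitted with dye as a term and array as a random block (statmod 1.5.0), with Benjamini-Hochberg adjustment over all names and a threshold of 0.05. The script was tested on simulated data. Homer1 and Nptx2 were also fitted per probe. Named are all 10 members, of each list of related genes at most the 4 called genes with the largest log2 differences, and the 3 gene names most correlated with Arc and with Nptx2. Some called genes of these lists are not reported here by name. Homer3 and the single cell type markers were named after their values were seen. The members and lists were chosen with earlier results of these data known.

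Same-numbered rats of the 2 groups deviated together (r from 0.21 to 0.34), but they share the dye, and once the dye was removed r was -0.04 to -0.06. With 2 rats per group and dye, that r is the same for replicates 1 and 3 and for replicates 2 and 4. It therefore cannot exclude a pairing beyond the dye. Alternatives were other background corrections, normalizations, filters, scalings, test and terms, each dye alone, and each rat left out. After the data had been seen, dropping spot values marked as non-uniform and the alternatives for single probes were added. Figures were drawn with matplotlib 3.10.9.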

Additional observations from a re-analysis of the deposited data

How the results depend on the processing

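Ier2, Ier3 and Btg2 kept their direction under all 25 alternatives to the reported setting and their call under 23, the exceptions being the methods' t-test and the Cy5 rats alone. Arc and Nptx2 kept their direction under all 25 and their call under 16 and 19, and Nptx1 under all 25 and 15. The number of members called lower, 5, fell to 3 under normexp background correction, under loess and Aquantile, and with channels scaled over spots valid in all rats, and to 0 under the methods' t-test after adjustment, which called 0 gene names in all (6103 had an unadjusted p under 0.05, against 9633 by limma), and in the Cy5 rats alone. The 1 member called higher, Nptx1, was lost (0 members) under normexp, the processed signal, no filter on valid spots, the methods' t-test, and in the Cy3 and in the Cy5 rats alone. Leaving out each rat, between 0 and 1 members were called higher and between 3 and 5 lower, and without COS rat 3 the calls over all gene names fell to 257 higher and 914 lower. The median difference of the members was -2.11 in the Cy3 rats alone and -1.11 in the Cy5 rats alone. Over all gene names, calls numbered 123 higher and 454 lower under normexp, 403 and 2679 with no filter, 1272 and 2828 with foreground at least 3 times background, and 0 and 2 in the Cy5 rats alone.

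Homer1 over all its spots turned to 0.19 in the deposited log2 table and to 0.22 with channels scaled over spots valid in all rats, and its long-form probe to 0.0941 under normexp, 0.0867 under loess and 0.0903 under quantile normalization, 0.31 in the deposited table and 0.34 in that scaling, none of these being called. Nptxr, 0.05 in the reported setting, ranged from -0.13 to 0.19 when each rat was left out, and was 0.49 in the deposited table, 0.45 in that scaling and 0.35 under quantile normalization, not called in any. The short over long form ratio of Homer1 differed by -1.69 to -1.53 under the 6 alternatives, with an exact permutation p of 0.0571 in each, while the exact permutation p of the Nptx2 probe ratio ranged from 0.0286 to 0.114. In the paired fit with the replicate number as a block (replicate block), 1 member was called higher and 5 lower, as without it, and the calls over all gene names were 1241 higher and 6624 lower. The causes of these changes were not tested.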
